A study of Mus musculus with 8 samples.

Results

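The genes described here are 10 genes of DNA damage signalling and the pachytene checkpoint, namely Atm, Atr, Topbp1, Mdc1, H2afx, Brca1, Rnf8, Chek1, Chek2 and Trip13. They were chosen by symbol, as the damage kinases, the gamma-H2AX pathway and Trip13, and each of the 10 was found among the 23235 symbols listed for every library. RNA of mouse spermatocytes was sequenced in 4 groups of 2 libraries each, 8 libraries in all. WT and Cnot4-null cells were compared at LZ (leptotene and zygotene) and at PD (pachytene and diplotene). All mice were C57BL/6 males, 6 weeks old. The Cnot4-null cells came from Cnot4 fl/fl;Stra8-Cre mice, in which Cre, driven by the promoter of the germ cell gene Stra8, removes exon 2 of Cnot4 and shifts its reading frame. Cells of each stage were sorted by flow cytometry after staining with Hoechst and propidium iodide. The labels describe Trizol extraction with TruSeq libraries and the methods describe Smart-Seq2, and which of them was used is not known from the values.

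In meiotic prophase, programmed DNA breaks activate the kinase ATM, and stretches of single-stranded DNA and unpaired chromosome axes activate the kinase ATR with its activator TOPBP1. Both kinases phosphorylate the histone variant H2AX, a mark that MDC1 binds and spreads and that RNF8 and BRCA1 act with, and at pachytene this signalling silences the sex chromosomes. CHEK1 and CHEK2 pass the signal to the cell cycle and to cell death, steps through which spermatocytes with unrepaired breaks or unpaired chromosomes are stopped. TRIP13 strips HORMA domain proteins from paired axes.

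Marker genes were read before the 10 genes, to set the labels beside the cells. The 8 PD spermatocyte markers summed to 238 and 362 FPKM (fragments scaled to transcript length and to the mapped total) in WT LZ and to 12243 and 11332 in WT PD, with Ldhc the most abundant. In Cnot4-null they summed to 243 and 117 FPKM at LZ and to 5697 and 2129 at PD. The 8 LZ spermatocyte markers, led by Sycp3, summed to 1275 and 1574 FPKM in WT LZ and 1044 and 1072 in WT PD, against 2759 and 1552 in Cnot4-null LZ and 705 and 450 in Cnot4-null PD. PD markers were thus high in both groups labelled PD, with the Cnot4-null PD libraries under the WT PD libraries. Sycp3 alone held 785 and 799 FPKM of the LZ marker sums in WT PD. From WT LZ to WT PD, limma found 6 of the 8 LZ markers lower and 1 higher (Spo11) at an adjusted p under 0.05, with a median log2 fold change of -2.61. At PD between the genotypes, limma called 2 of the 8 PD markers lower (Pou5f2 and Tbpl1) and none higher (0 higher and 4 lower at an unadjusted p under 0.05), where called means an adjusted p under 0.05. After the libraries had been rescaled to equal medians 6 of the 8 were called lower, and without Cnot4-null PD 1 it was 4. Of the LZ markers, Dmc1 and Prdm9 were called higher and Sycp3 and Spo11 lower in Cnot4-null PD, counts that came to 1 called marker without WT PD 1 or without WT PD 2 and to 2 without Cnot4-null PD 2.

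The 2 Cnot4-null PD libraries stood apart from all others in spermatid and Leydig markers, but not in spermatogonia markers. The spermatogonia list, led by Stra8 or Uchl1, was highest in the LZ libraries, where it summed to 925 to 1046 FPKM. Stra8 alone held 330 and 293 FPKM in WT LZ, so this list does not tell spermatogonia from sorted LZ cells. WT PD had the lowest sums, 27.6 and 18.9 FPKM, and Cnot4-null PD had 526 and 562. All 8 markers of the list were called higher in Cnot4-null PD than in WT PD (6 after quantile normalization). The 8 spermatid markers, led there by Prm1, were called higher as well and summed to 16054 and 7273 FPKM in Cnot4-null PD, 450 and 289 in WT PD, 1847 and 1543 in WT LZ and 4062 and 712 in Cnot4-null LZ. Without WT PD 2 or without Cnot4-null PD 1, 5 of these 8 were called. Leydig markers, 8 of 8 called higher with each library left out in turn, summed to 10082 and 22306 FPKM in Cnot4-null PD, with Insl3 alone at 9669 and 21608. In the other libraries Leydig markers summed to between 7.07 and 19.02 FPKM except in WT PD 1, at 116, of which Insl3 made up 104, and the defining markers Lhcgr and Hsd17b3 were at 0 in those other 5. In WT PD 2, Cyp17a1, Cyp11a1 and Hsd3b6 were at 0 as well, and in Cnot4-null PD no Leydig marker was. Testing needed a value above 1 FPKM in at least 1 library, a filter that Lhcgr, Hsd17b3, Hsd3b1 and Hsd3b6 passed through Cnot4-null PD alone. The filter itself thus favoured calling these Leydig markers higher.

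Somatic markers of other kinds were higher in Cnot4-null PD too. Of the peritubular and endothelial markers, led there by Dcn, 7 of the 7 tested were called higher (4 without WT PD 1 or without WT PD 2), with sums of 290 and 787 FPKM, where WT PD had 19.5 and 2.69 and the LZ libraries had between 3.38 and 9.56. Myh11, Cdh5 and Col1a2 passed the filter of 1 FPKM through Cnot4-null PD alone, so the filter itself favoured calling them higher. Sertoli markers, led by Clu, summed to 103 and 212 FPKM in Cnot4-null PD, 8.95 and 16.6 in WT PD, 65.8 and 58.9 in WT LZ and 6.85 and 10.3 in Cnot4-null LZ. Of these, 4 of 6 tested were called higher (fewer without WT PD 2, and 2 after quantile normalization). Amh, of the same list, was at 0 in every library but Cnot4-null PD 2, at 0.129. Among the Sertoli markers called, Gata4 and Kitl passed the filter through Cnot4-null PD alone, so it favoured their calls too. Macrophage markers, led there by Lyz2, summed to 28.1 and 117 FPKM in Cnot4-null PD, 3.45 and 3.28 in WT PD, 38.0 and 1.40 in WT LZ and 12.5 and 5.15 in Cnot4-null LZ. Of the 7 tested, 3 were called higher, 5 without WT LZ 1 or without WT LZ 2, and 0 without WT PD 1, without WT PD 2, without Cnot4-null PD 2 or after quantile normalization (6 at an unadjusted p under 0.05 in the fit of all libraries). Csf1r, which was called in the fit of all libraries, and Emr1, which was not, also passed the filter through Cnot4-null PD alone. The part of any of these markers in the values of the 10 genes was not tested, and in RNA of whole cell samples fewer cells of a type and less RNA per cell cannot be told apart.

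**Figure D1:**
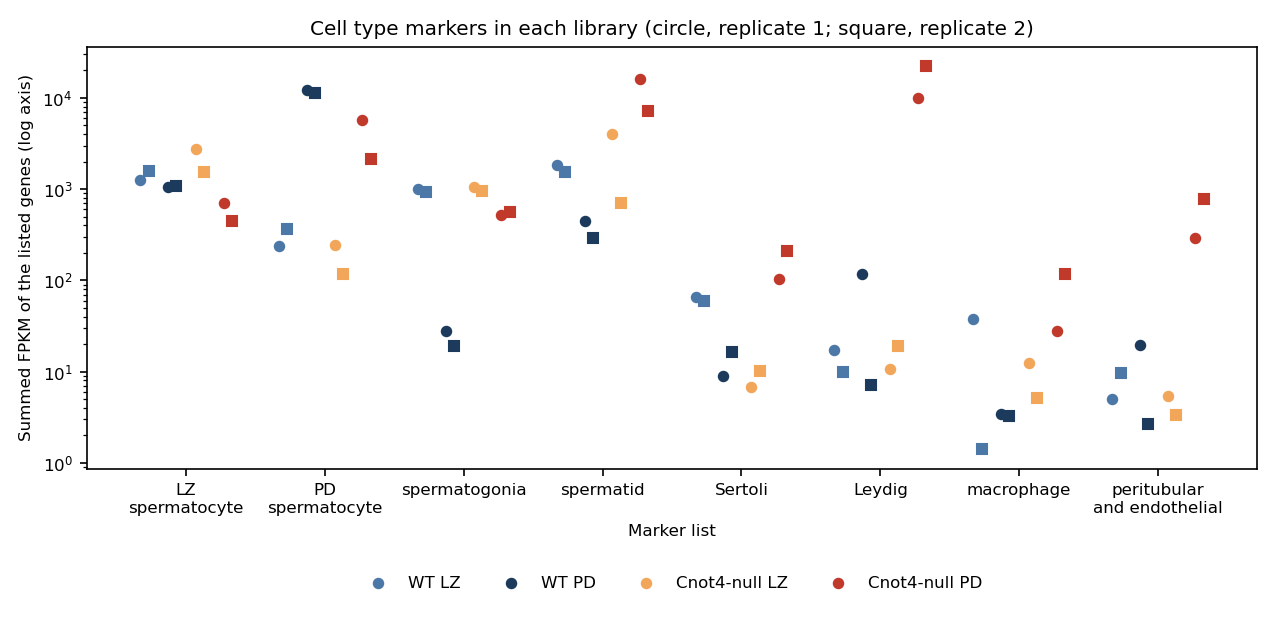
Summed FPKM of each cell type marker list (log axis) in the 8 libraries, by list, with circles for replicate 1 and squares for replicate 2 of each group. The Cnot4-null PD libraries are highest in the Leydig list (10082 and 22306 FPKM) and in the spermatid list (16054 and 7273).

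Spread set the same libraries apart. The duplicates of the 10 genes differed by a median of 0.50 on the log2 scale in Cnot4-null PD (largest 1.16, for Chek2), 0.22 in WT LZ, 0.09 in WT PD and 0.26 in Cnot4-null LZ. Cnot4 itself had FPKM values of 36.03 and 34.9 in WT LZ, 76.6 and 73.1 in WT PD, 43.2 and 34.6 in Cnot4-null LZ and 65.9 and 53.5 in Cnot4-null PD. Its values at PD were lower in both Cnot4-null libraries, with a log2 fold change of -0.33 (SE 0.20, adjusted p = 0.192), and 1 value per gene cannot show the loss of an exon.

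Fold changes of the 10 genes are differences in log2(FPKM + 1) between group means of 2 libraries, from 1 limma model of all 15899 genes above 1 FPKM in at least 1 library, which all 10 passed. The median gene of that table moved by -0.32 from WT LZ to WT PD, by 0.19 from Cnot4-null LZ to Cnot4-null PD, by 0.00 between the genotypes at LZ and by 0.66 between them at PD. At PD this median was -0.10 when values were quantile normalized and 0.42 when rescaled to equal medians, so changes there are also given relative to it. Those relative changes use 0.66. The median was 0.17 with no filter on genes, 0.30 with a mean of 5 FPKM or more and 1.01 with a pseudocount of 0.1, so their size depends on these choices.

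**Figure D2:**
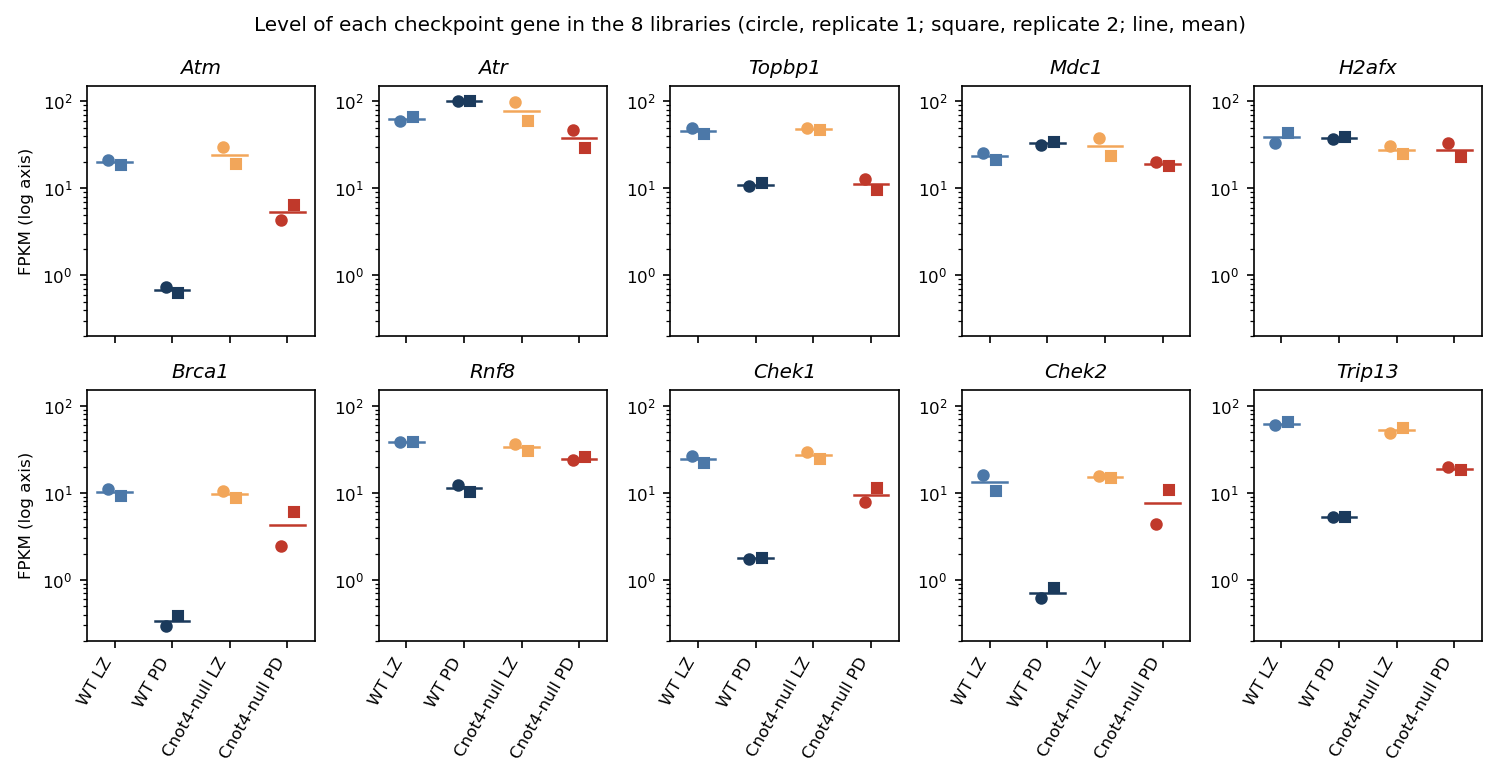
FPKM of each of the 10 genes (log axis) in the 4 groups, with a circle for replicate 1, a square for replicate 2 and a line for the mean. Atm, Brca1, Rnf8, Chek1 and Trip13 lie lowest in WT PD and between WT PD and the LZ libraries in Cnot4-null PD, Chek2 does so but for Cnot4-null PD 2, which is just above WT LZ 2, whereas Atr is lower in Cnot4-null PD (46.8 and 29.2 FPKM) than in WT PD (101 and 100.1).

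Among the kinases at the top of the pathway, Atm, which responds to DNA breaks, had FPKM values of 21.2 and 18.5 in WT LZ, 0.730 and 0.628 in WT PD, 29.99 and 18.9 in Cnot4-null LZ and 4.33 and 6.51 in Cnot4-null PD. Its WT PD libraries were the lowest of the 8, those of Cnot4-null PD lay between them and the LZ libraries, and the genotypes overlapped at LZ. The mean Atm level at PD was 3.42% of that at LZ in WT and 22.2% in Cnot4-null. Atm fell from LZ to PD in WT (log2 fold change -3.63, SE 0.30, adjusted p = 6.77e-05) and in Cnot4-null (-1.97, adjusted p = 0.00220). Against WT PD it was higher in Cnot4-null PD by 1.91 on the log2 scale (SE 0.30, adjusted p = 0.00217), a ratio of mean FPKM of 7.98 and a change of 1.25 relative to the median gene. After quantile normalization its change at PD was 0.54 and was not called (adjusted p = 0.163).

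Atr, the kinase of single-stranded DNA and unpaired axes, ran the other way. It had FPKM values of 59.8 and 66.6 in WT LZ, 101 and 100.1 in WT PD, 97.5 and 59.3 in Cnot4-null LZ and 46.8 and 29.2 in Cnot4-null PD. The WT PD libraries were above the other 6, those of Cnot4-null PD were below the other 6, and the genotypes overlapped at LZ, where the Cnot4-null duplicates themselves lay far apart. From LZ to PD the mean Atr level went to 159% in WT, a log2 fold change of 0.66 that was not called (SE 0.30, adjusted p = 0.102), although it was called after rescaling (1.05, adjusted p = 0.00721). In Cnot4-null, Atr fell by 1.02 on the log2 scale (adjusted p = 0.0292), a call that was lost with no filter on genes (adjusted p = 0.0791). Leaving out WT LZ 1, WT LZ 2, WT PD 1, WT PD 2, Cnot4-null LZ 1 or Cnot4-null PD 2 ended this call. The WT libraries do not enter this fold change, which stayed at -1.02 without any of them, while fewer libraries entered the estimate of spread. With each library left out in turn it lay between -1.38 and -0.67. At PD, Atr was lower in Cnot4-null by -1.42 (SE 0.30, adjusted p = 0.00779), -2.08 relative to the median gene, with a mean in WT PD 2.65 times that in Cnot4-null PD. That call held after quantile normalization (-1.34) and rescaling (-1.84), and it was just lost without WT PD 1 (-1.41, adjusted p = 0.0504) or without WT PD 2 (-1.42, adjusted p = 0.0511).

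Topbp1, which activates ATR, had FPKM values of 49.6 and 42.5 in WT LZ, 10.5 and 11.5 in WT PD, 49.4 and 46.2 in Cnot4-null LZ and 12.7 and 9.55 in Cnot4-null PD. All PD libraries were below all LZ libraries, and the genotypes overlapped at both stages. Topbp1 fell from LZ to PD by 1.97 on the log2 scale in WT (SE 0.21, adjusted p = 0.000194) and by 2.02 in Cnot4-null (adjusted p = 0.000589), and the mean at PD was 23.9% and 23.3% of that at LZ. Its genotype difference at PD was 0.00 (SE 0.21, adjusted p = 0.997) with the values as deposited, -0.66 relative to the median gene, and it was called lower in Cnot4-null after quantile normalization (-0.81, adjusted p = 0.0244) but not after rescaling (-0.39, adjusted p = 0.0989).

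Mdc1, the reader that spreads the H2AX mark along chromatin, had FPKM values of 25.2 and 21.3 in WT LZ, 31.7 and 34.2 in WT PD, 37.7 and 23.6 in Cnot4-null LZ and 20.1 and 17.95 in Cnot4-null PD. The Cnot4-null PD libraries were the lowest of the 8, the WT PD libraries were above WT LZ, and the Cnot4-null LZ libraries lay on either side of WT PD. From LZ to PD the log2 fold change was 0.49 in WT (SE 0.25, adjusted p = 0.144) and -0.63 in Cnot4-null (adjusted p = 0.0805), neither of them called. After rescaling both were called, at 0.86 (adjusted p = 0.0102) and -0.68 (adjusted p = 0.0350), the second also after quantile normalization (-0.91, adjusted p = 0.0145) and without Cnot4-null LZ 2 (-0.95, adjusted p = 0.0336). At PD, Mdc1 was lower in Cnot4-null by -0.76 (adjusted p = 0.0391), -1.42 relative to the median gene. This call was kept after quantile normalization (-1.05) and rescaling (-1.18). It was lost with no filter on genes (adjusted p = 0.0700). It was also lost without WT LZ 1, WT LZ 2, WT PD 1, WT PD 2, Cnot4-null PD 1 or Cnot4-null PD 2, with log2 fold changes between -0.84 and -0.68. The WT LZ libraries do not enter this fold change, which stayed at -0.76 without either of them, while fewer libraries entered the estimate of spread.

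H2afx, which encodes the histone variant that carries the mark, had FPKM values of 33.5 and 43.6 in WT LZ, 36.6 and 38.8 in WT PD, 30.4 and 25.1 in Cnot4-null LZ and 32.9 and 22.7 in Cnot4-null PD. Both Cnot4-null libraries were below both WT libraries at each stage, and the stages overlapped within each genotype. The mean at PD was 97.8% of that at LZ in WT and 100.3% in Cnot4-null. Its genotype difference was -0.45 at LZ (SE 0.25, adjusted p = 0.859) and -0.45 at PD (adjusted p = 0.159), neither of them called. At PD it was called lower after quantile normalization (-0.63, adjusted p = 0.0493), after rescaling (-0.87, adjusted p = 0.0108) and without Cnot4-null PD 1 (-0.70, adjusted p = 0.0403), and it was -1.11 relative to the median gene.

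Of the ubiquitin ligases, Brca1, which brings ATR to unpaired axes and acts in break repair, had FPKM values of 11.1 and 9.29 in WT LZ, 0.298 and 0.382 in WT PD, 10.6 and 8.68 in Cnot4-null LZ and 2.43 and 6.01 in Cnot4-null PD. It was under 1 FPKM in WT PD alone, and the 2 Cnot4-null PD libraries lay far from each other, both between WT PD and the LZ libraries. Brca1 fell from LZ to PD in WT by 3.06 on the log2 scale (SE 0.36, adjusted p = 0.000303), to 3.33% of the LZ mean. In Cnot4-null the mean at PD was 43.9% of that at LZ, and the log2 fold change of -1.11 just passed the threshold (adjusted p = 0.0410). That call was lost with a pseudocount of 0.1 (adjusted p = 0.0589) and with no filter (0.0955). It was also lost without WT LZ 1, WT LZ 2, WT PD 1, WT PD 2, Cnot4-null LZ 1, Cnot4-null LZ 2 or Cnot4-null PD 1 (-0.59). The WT libraries do not enter this fold change, which stayed at -1.11 without any of them, while fewer libraries entered the estimate of spread. Fitting the replicate number as a block ended the call within Cnot4-null as well. At PD, Brca1 was higher in Cnot4-null by 1.87 (SE 0.36, adjusted p = 0.00524), 1.21 relative to the median gene, with mean FPKM 12.4 times that of WT PD. After quantile normalization this was 0.55 and not called (adjusted p = 0.243).

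Rnf8, the ligase that MDC1 recruits to marked chromatin, had FPKM values of 38.7 and 38.4 in WT LZ, 12.3 and 10.3 in WT PD, 36.5 and 30.4 in Cnot4-null LZ and 24.0 and 25.6 in Cnot4-null PD. The groups were apart from each other in all 4 comparisons, in the order WT LZ, Cnot4-null LZ, Cnot4-null PD and WT PD. Rnf8 fell from LZ to PD in WT by 1.69 (SE 0.20, adjusted p = 0.000264), to 29.2% of the LZ mean, and its log2 fold change in Cnot4-null was -0.41 (adjusted p = 0.121). The latter was called after quantile normalization (-0.63, adjusted p = 0.0328). Rnf8 was higher in Cnot4-null PD than in WT PD by 1.08 (SE 0.20, adjusted p = 0.00400), 0.41 relative to the median gene, and after quantile normalization by 0.56 with no call (adjusted p = 0.0544). In the GENCODE vM1 annotation of mm9 the Rnf8 gene shares all of its 88570 bases with Ftsjd2 on the same strand. Rnf8 also shares 13982 bases with the protein-coding gene 1110021J02Rik on the other strand. The paper's methods name UCSC gene models for the FPKM values, and whether these overlaps are in those was not tested. If they are, 1 value per symbol cannot tell which of the overlapping genes the reads behind the Rnf8 value come from.

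Chek1, the effector kinase that ATR activates, had FPKM values of 26.7 and 22.2 in WT LZ, 1.72 and 1.80 in WT PD, 29.7 and 24.4 in Cnot4-null LZ and 7.77 and 11.4 in Cnot4-null PD. Cnot4-null PD lay between WT PD and the LZ libraries, with no overlap on either side, and the genotypes overlapped at LZ. The mean Chek1 level at PD was 7.21% of that at LZ in WT and 35.4% in Cnot4-null, and it fell in both (log2 fold changes -3.20 and -1.42, SE 0.25, adjusted p = 5.69e-05 and 0.00393). At PD it was higher in Cnot4-null by 1.91 (adjusted p = 0.00109), 1.25 relative to the median gene, a ratio of mean FPKM of 5.43, and after quantile normalization by 0.73 with no call (adjusted p = 0.0572).

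Chek2, the effector kinase downstream of ATM, had FPKM values of 16.2 and 10.6 in WT LZ, 0.627 and 0.804 in WT PD, 15.6 and 14.8 in Cnot4-null LZ and 4.33 and 10.9 in Cnot4-null PD. Cnot4-null PD 2 was just above the lower WT LZ library and Cnot4-null PD 1 well below it, while both were above WT PD and below Cnot4-null LZ. Chek2 fell from LZ to PD in WT by 3.04 (SE 0.40, adjusted p = 0.000502), to 5.34% of the LZ mean. In Cnot4-null the mean at PD was 50.3% of that at LZ and the log2 fold change was -1.02 (adjusted p = 0.0741), which was called after quantile normalization (-1.55, adjusted p = 0.0260) and without Cnot4-null PD 2 (-1.60, adjusted p = 0.0104). At PD, Chek2 was higher in Cnot4-null by 2.22 (SE 0.40, adjusted p = 0.00399) with a ratio of mean FPKM of 10.7, and after quantile normalization by 0.97 with no call (adjusted p = 0.124).

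Trip13, the ATPase that remodels HORMA domain proteins, had FPKM values of 59.8 and 65.1 in WT LZ, 5.28 and 5.29 in WT PD, 49.3 and 56.2 in Cnot4-null LZ and 19.6 and 18.4 in Cnot4-null PD. Its duplicates lay close together in every group, Cnot4-null PD was between WT PD and the LZ libraries, and at LZ both Cnot4-null libraries were below both WT libraries. The mean at PD was 8.46% of that at LZ in WT and 36.1% in Cnot4-null, and it fell in both (log2 fold changes -3.34 and -1.42, adjusted p = 2.00e-05 and 0.00119). Trip13 was called higher in Cnot4-null PD than in WT PD (log2 fold change 1.67, SE 0.18, adjusted p = 0.000526), 1.01 relative to the median gene, with mean FPKM 3.601 times that of WT PD. It was the only gene of the 10 called higher after quantile normalization (0.89, adjusted p = 0.0119). Trip13 was also called higher after rescaling (1.29), and with each library left out in turn its log2 fold changes lay between 1.63 and 1.72.

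**Figure D3:**
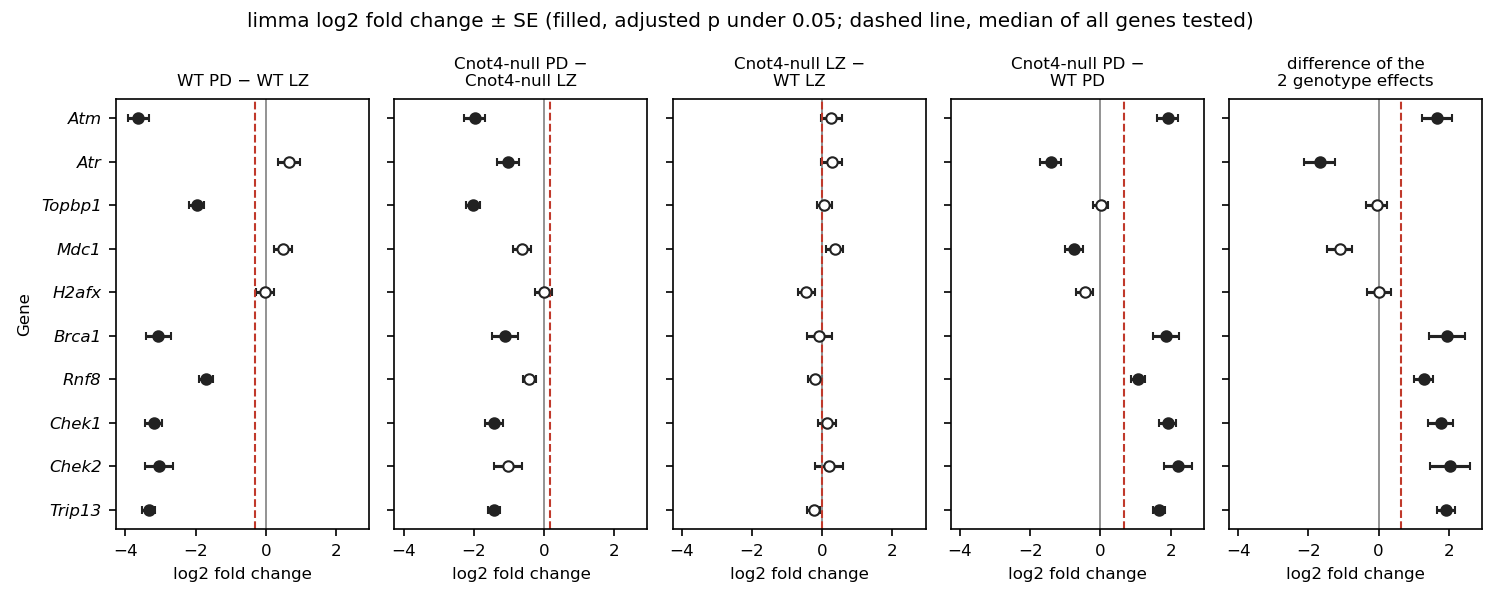
Log2 fold change of each gene (dots, with bars for 1 SE of the limma model) in the 4 comparisons of groups and in the difference of the 2 genotype effects, filled where the adjusted p is under 0.05, with a dashed line at the median of all genes tested. At PD, 6 genes are filled to the right and Atr and Mdc1 to the left, and after quantile normalization Trip13 alone would be filled to the right, with Atr, Mdc1, H2afx and Topbp1 to the left.

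The comparison of WT PD with WT LZ asks how these genes move through normal prophase. In WT, limma called 7 of the 10 lower at PD (all but Atr, Mdc1 and H2afx) and 0 higher (0 at an unadjusted p under 0.05), whereas of the 15899 genes 36.2% were called lower and 21.6% higher. The median log2 fold change over the 10 was -2.51, against -0.32 over all genes. The same 7 genes were called lower under every alternative, each library left out in turn included, and after rescaling Atr and Mdc1 were called higher. Together the 10 genes summed to 342 and 338 FPKM in WT LZ and to 200.4 and 204 in WT PD.

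From LZ to PD within Cnot4-null, limma called 6 of the 10 lower (Atm, Atr, Topbp1, Brca1, Chek1 and Trip13) and 0 higher, with 8 lower and 0 higher at an unadjusted p under 0.05. Of all genes, 18.2% were called lower and 27.8% higher, and the 10 genes had a median of -1.06 against 0.19 for all. After quantile normalization 9 of the 10 were called lower, after rescaling 7, and with no filter on genes 4. The number of all genes called, 7316, came to 4651 without Cnot4-null LZ 1 and to 4856 without Cnot4-null LZ 2. The sums over the 10 genes were 387 and 308 FPKM in Cnot4-null LZ and 175.0 and 158 in Cnot4-null PD.

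Between the genotypes at LZ, limma called 0 of the 10 genes, and 0 had an unadjusted p under 0.05. Of all genes, 0.0692% were called higher and 0.0252% lower, 15 genes in all, with 25 without WT LZ 1, 9 without WT PD 1 and 9 without WT PD 2. The log2 fold change was 0.35 for Mdc1 (adjusted p = 0.937) and -0.45 for H2afx, with Atm at 0.25, Atr at 0.27, Topbp1 at 0.06, Brca1 at -0.08, Rnf8 at -0.20, Chek1 at 0.14, Chek2 at 0.19 and Trip13 at -0.24. In H2afx, Rnf8 and Trip13 both Cnot4-null values lay below both WT values, and in the other 7 the genotypes overlapped. These p-values do not show that levels were equal.

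Between the genotypes at PD, limma called 6 of the 10 higher in Cnot4-null (Atm, Brca1, Rnf8, Chek1, Chek2 and Trip13) and 2 lower (Atr and Mdc1). Of all genes, 41.6% were called higher and 11.5% lower, and the median over the 10 was 1.37 against 0.66 for all genes. Some of all genes passed the filter of 1 FPKM through Cnot4-null PD alone, so the filter itself favoured calls higher there. The same holds for the other shares of all genes that use this group. Among the 9348 genes with a mean of 5 FPKM or more, 3678 were called higher and 1541 lower, with a median of 0.30. The calls of the 10 were the same there. Each of the 6 had both Cnot4-null values above both WT values, and Atr, Mdc1 and H2afx had both below. Relative to the median gene, the same 6 were above it and the other 4 below. The 6 calls were kept with each library left out in turn, whereas the number of all genes called, 8449, came to 4369 without WT PD 1 and to 4073 without WT PD 2. This comparison shares its WT PD libraries with the comparison of stages in WT, and its Cnot4-null PD libraries are those with the markers of other cells given before.

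The scale between libraries bore on this comparison. With the values as deposited, 78.3% of the calls over all genes at PD were higher in Cnot4-null, against 41.0% with quantile normalization and 60.3% with rescaling. Of the 10 genes, quantile normalization called 1 higher (Trip13) and 4 lower (Atr, Topbp1, Mdc1 and H2afx), and rescaling called the same 6 higher and 3 lower (Atr, Mdc1 and H2afx). None of the 6 changed sign under either. For the stages within Cnot4-null, 60.5% of all calls were higher at PD as deposited and 37.4% after quantile normalization.

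**Figure D4:**
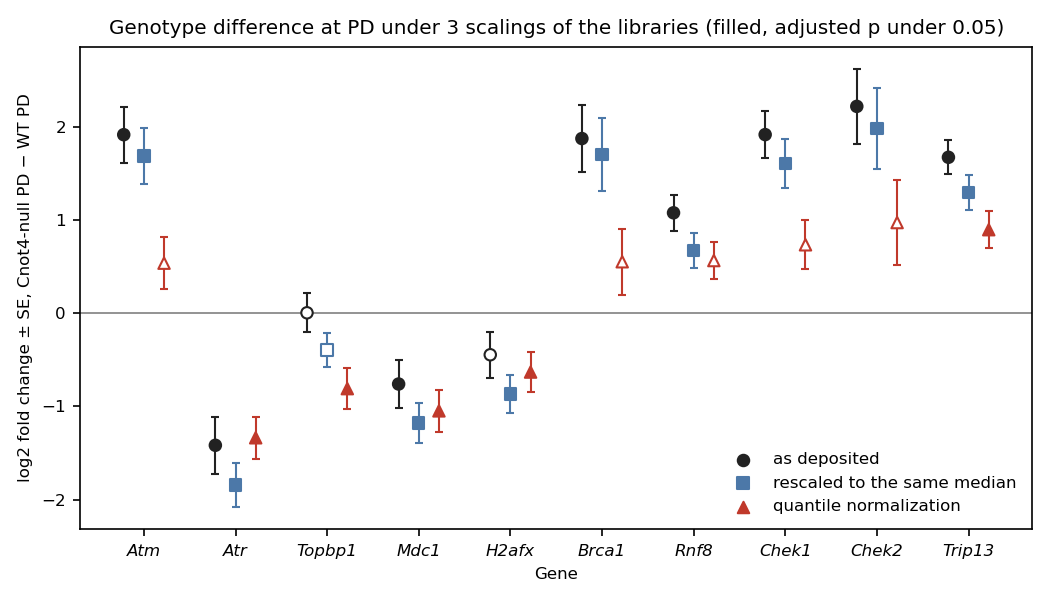
Log2 fold change between Cnot4-null PD and WT PD for each gene (points, with bars for 1 SE of the limma model) with values as deposited (circles), rescaled to the same median (squares) and quantile normalized (triangles), filled where the adjusted p is under 0.05. The 6 genes higher in Cnot4-null PD stay above 0 in all 3, Trip13 alone is filled in all 3 above 0, and Topbp1 goes from 0.00 to -0.81.

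Whether the genotypes differed by another amount at PD than at LZ was tested as the difference of the 2 effects. It was called for 7 of the 10, positive in Atm (1.66), Brca1 (1.95), Rnf8 (1.28), Chek1 (1.77), Chek2 (2.02) and Trip13 (1.91) and negative in Atr (-1.68). Over all genes 26% were called positive and 3.97% negative, and the share of positive calls, 86.8%, was 44.1% after quantile normalization and 63.3% after rescaling. Trip13 (SE 0.26, adjusted p = 0.00310) was called with each library left out in turn, and it, Atr and Mdc1 were the 3 called after quantile normalization. Mdc1 was not called with the values as deposited (-1.11, adjusted p = 0.0537), but it was among genes with a mean of 5 FPKM or more (adjusted p = 0.0468). After rescaling Mdc1 was called (-1.54, adjusted p = 0.0118) and Chek2 was not (adjusted p = 0.0620), and with no filter on genes 3 were called (Rnf8, Chek1 and Trip13). The other 6 calls were each lost without some libraries, when fewer libraries also entered the model, while the differences kept their sign, between 1.34 and 1.98 for Atm, -2.04 and -1.33 for Atr, 1.44 and 2.47 for Brca1, 1.15 and 1.41 for Rnf8, 1.53 and 2.02 for Chek1 and 1.44 and 2.60 for Chek2. Of the 10 genes, 2 were called without WT LZ 1, 3 without WT LZ 2, 1 without WT PD 1, 1 without WT PD 2, 4 without Cnot4-null LZ 1 and 3 without Cnot4-null LZ 2, but 7 without Cnot4-null PD 1 and 5 without Cnot4-null PD 2. Chek1 was lost without WT PD 1 (adjusted p = 0.0588), WT PD 2 (0.0576) or Cnot4-null LZ 2 (0.0503), and Rnf8 without those 3 (0.0513, 0.0810 and 0.0569) or WT LZ 1 (0.0502). Atm was lost without WT LZ 1 (0.0837), WT LZ 2 (0.0575), WT PD 1 (0.0895), WT PD 2 (0.104), Cnot4-null LZ 2 (0.0805) or Cnot4-null PD 2 (0.0525), and Atr without WT LZ 1 (0.0902), WT LZ 2 (0.0651), WT PD 1 (0.0926), WT PD 2 (0.0953), Cnot4-null LZ 1 (0.0785) or Cnot4-null PD 2 (0.0548). Brca1 and Chek2 were lost without any 1 of the 4 WT libraries (0.0912, 0.0624, 0.107 and 0.101 for Brca1, and 0.114, 0.0540, 0.122 and 0.108 for Chek2, in the order WT LZ 1 and 2 and WT PD 1 and 2). They were also lost without Cnot4-null LZ 1 (0.0695 and 0.0962) or Cnot4-null LZ 2 (0.0938 and 0.102), and Mdc1 was called without Cnot4-null LZ 2 (-1.44, adjusted p = 0.0366). Over all genes the 4770 calls came to 2603 without WT LZ 1, 1801 without WT PD 1, 1723 without WT PD 2, 2788 without Cnot4-null LZ 1, 2433 without Cnot4-null LZ 2 and 7944 without Cnot4-null PD 1.

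In order of level, as FPKM and so per length, Atr and Trip13 led in WT LZ at means of 63.2 and 62.5, and Chek2 and Brca1 were lowest at 13.4 and 10.2. Neighbours whose duplicates overlapped in WT LZ were Atr and Trip13, Rnf8 and H2afx, Chek1 and Mdc1, and Chek2 and Brca1. In WT PD the mean levels ran from Atr (100.4 FPKM) over H2afx (37.7), Mdc1 (32.9), Rnf8 (11.3), Topbp1 (11.0), Trip13 (5.28), Chek1 (1.76), Chek2 (0.715) and Atm (0.679) to Brca1 (0.340), and the neighbours Rnf8 and Topbp1 and the neighbours Chek2 and Atm overlapped. Cnot4-null LZ began with Atr and Trip13 and ended with Chek2 and Brca1, as WT LZ did, and its neighbours from Rnf8 over Mdc1, H2afx and Chek1 to Atm each overlapped, as did Trip13 and Topbp1. In Cnot4-null PD the means ran from Atr at 38.0 FPKM to Brca1 at 4.22, a narrower spread than in WT PD. There Atr, H2afx and Rnf8 overlapped as neighbours, Mdc1 and Trip13 did, and so did each neighbouring pair in the run from Topbp1 over Chek1, Chek2 and Atm to Brca1.

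Genes that work with these 10 were counted from 5 lists of 57 symbols, 56 of which were tested. From LZ to PD in WT, 40 of the 56 were called lower and 4 higher, with a median of -1.24, beside 36.2% lower and 21.6% higher over all genes. Within Cnot4-null, 31 were called lower at PD and 2 higher (median -0.89), beside 18.2% lower and 27.8% higher over all genes, and the lower ones came to 14 without Cnot4-null LZ 1. Between the genotypes at LZ none was called by limma, and 3 had an unadjusted p under 0.05. Between the genotypes at PD, 23 were called higher and 2 lower in Cnot4-null (41.1% and 3.57% of those tested, beside 41.6% and 11.5% of all genes), with a median of 0.40 against 0.66 for all genes. The share called higher was thus close to that of all genes. After quantile normalization these counts were 10 and 15, after rescaling 17 and 11, and without WT PD 1 or without WT PD 2 they were 17 and 0. The genes named from each list are its 3 largest rises and 3 largest falls among those called at PD.

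In the list of ATM activation, with the MRN complex that senses breaks and the chaperones of the large kinases, 3 of 8 were called higher in Cnot4-null PD and 1 lower (37.5% and 12.5%, against 41.6% and 11.5% of all genes). Prkdc, the catalytic subunit of DNA-PK, rose from 1.17 and 1.18 FPKM in WT PD to 4.37 and 8.03 (log2 fold change 1.68, adjusted p = 0.00372). Telo2, a chaperone subunit for ATM and ATR, had 1.96 and 4.32 FPKM in Cnot4-null PD, with 0.237 and 0.254 in WT PD (1.67, adjusted p = 0.00514). Neither call held after quantile normalization (adjusted p = 0.434 and 0.358), when 4 of the 8 were called lower and none of these 8 higher. Rad50, of the MRN complex, rose by less (0.89, adjusted p = 0.0201), a call lost under both scalings, without WT PD 1 (adjusted p = 0.0812), without WT PD 2 (0.115) and without Cnot4-null PD 2 (0.0720). Kat5, the acetyltransferase that activates ATM, was the 1 that fell, from 49.7 and 44.9 FPKM in WT PD to 27.2 and 15.2 (-1.17, adjusted p = 0.0112). Its call was lost without WT PD 1 (adjusted p = 0.0777) or without WT PD 2 (0.0589), and the list as a whole had 2 calls without WT PD 1 or without WT PD 2.

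In the list of ATR activation, which holds the Rad9-Rad1-Hus1 clamp, its loader and fork protection factors, 5 of 11 (45.5%, against 41.6% of all genes) were called higher in Cnot4-null PD and 6 were not called. Tipin, a fork protection factor, had FPKM values of 386 and 532 in WT LZ, 9.28 and 8.15 in WT PD, 395 and 343 in Cnot4-null LZ and 57.0 and 74.9 in Cnot4-null PD. It was the most abundant of the 11 at LZ in both genotypes, and both Cnot4-null PD values lay between WT PD and LZ (genotype change at PD 2.77, adjusted p = 0.000242). Rad9, a clamp subunit, had 31.4 and 27.2 FPKM in Cnot4-null PD, with 5.01 and 4.203 in WT PD (2.43, adjusted p = 0.00126). Clspn, the adaptor through which ATR activates CHEK1, had 9.32 and 9.81 FPKM in Cnot4-null PD, with 0.938 and 1.10 in WT PD (2.39, adjusted p = 0.00126). The calls of Tipin, Rad9 and Clspn were kept under both scalings, although quantile normalization also called 3 of the 11 lower.

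Of 14 genes that act at marked chromatin, 7 (50%, against 41.6% of all genes) were called higher in Cnot4-null PD and 7 were not called. After quantile normalization it was 2 higher and 4 lower, after rescaling 4 and 2, and 4 were called higher without WT PD 1 or without WT PD 2. Brcc3, the deubiquitinase of a BRCA1 complex and a gene of chromosome X, had 13.1 and 12.4 FPKM in Cnot4-null PD, with 0.960 and 0.502 in WT PD (3.001, adjusted p = 0.000188). Brip1, the helicase partner of BRCA1, had 8.85 and 9.72 FPKM in Cnot4-null PD, with 2.11 and 2.30 in WT PD (1.68, adjusted p = 0.00285; not called after quantile normalization, adjusted p = 0.170). Ube2n, the ubiquitin conjugating enzyme that works with RNF8, had 67.7 and 77.2 FPKM in Cnot4-null PD, with 22.5 and 27.1 in WT PD (1.51, adjusted p = 0.00476).

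Of the checkpoint effectors and phosphatases, 6 of 14 tested (42.9%, against 41.6% of all genes) were called higher in Cnot4-null PD and 8 were not called, with Trp63 not tested for its low level. Bax, which permeabilizes mitochondria in cell death, had FPKM values of 127 and 143 in WT LZ, 0.385 and 2.29 in WT PD, 106 and 129 in Cnot4-null LZ and 45.5 and 70.5 in Cnot4-null PD. Its change at PD was 4.75 (SE 0.41, adjusted p = 0.000259). Cdkn1a, an inhibitor of cyclin-dependent kinases, had 5.12 and 7.90 FPKM in Cnot4-null PD, with 0.525 and 0 in WT PD (2.58, adjusted p = 0.00120). Cdc25b, a phosphatase that CHEK1 restrains, had 2.47 and 5.23 FPKM in Cnot4-null PD, with 0.136 and 0.0415 in WT PD (2.096, adjusted p = 0.00190). After quantile normalization 3 of the list were called higher and 1 lower.

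Among HORMA proteins, partners of TRIP13 and factors of sex chromosome silencing, 2 of 9 were called higher in Cnot4-null PD and 1 lower (22.2% and 11.1%, against 41.6% and 11.5% of all genes). Scml2, a Polycomb protein encoded on chromosome X, had FPKM values of 74.4 and 90.8 in WT LZ, 1.46 and 0.834 in WT PD, 91.9 and 88.9 in Cnot4-null LZ and 18.9 and 31.7 in Cnot4-null PD (genotype change at PD 3.58, adjusted p = 0.000218). Hormad1, the axis protein that TRIP13 removes, had 104 and 57.8 FPKM in Cnot4-null PD, with 192 and 218 in WT PD (-1.39, adjusted p = 0.0162). That fall was not called with no filter on genes (adjusted p = 0.0596), without WT PD 1 (0.0666), without WT PD 2 (0.0912) or without Cnot4-null PD 2 (0.0894). Mad2l1, a HORMA protein of the spindle checkpoint, was higher by 0.91 (adjusted p = 0.0120), a call lost under both scalings, without WT PD 1 (adjusted p = 0.0608) and without WT PD 2 (0.0778). Without WT PD 1 or without WT PD 2, Scml2 was the 1 gene of the list called, and the median over the list at PD was 0.01.

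Since this signalling is known for its place in silencing the sex chromosomes at pachytene, the 648 tested genes of chromosome X were set beside the 14544 autosomal ones. The median X-linked gene had FPKM values of 3.69 and 3.81 in WT LZ, 0.250 and 0.213 in WT PD, 4.86 and 3.90 in Cnot4-null LZ and 3.82 and 4.65 in Cnot4-null PD. Autosomal medians were 6.24 and 6.24 FPKM in WT LZ, 3.71 and 3.64 in WT PD, 6.37 and 5.68 in Cnot4-null LZ and 8.56 and 9.02 in Cnot4-null PD. The X-linked median in FPKM was thus lowest in the 2 WT PD libraries. X-linked genes took 0.245% and 0.221% of the summed FPKM in WT PD, 1.43% and 1.94% in Cnot4-null PD and between 2.38% and 2.60% at LZ, so by this share Cnot4-null PD was below LZ as well. From LZ to PD in WT the median X-linked log2 fold change was -1.77, against -0.31 for autosomes, and in Cnot4-null it was -0.35 against 0.17. The genotype difference at PD was 1.95 against 0.61, with 482 X-linked genes called higher and 2 lower (74.4% and 0.309%), while 40.5% of autosomal genes were called higher and 11.9% lower. How many of them passed the filter of 1 FPKM through Cnot4-null PD alone was not counted, and the filter favoured calls higher for such genes. The X-linked median exceeded the autosomal one by 1.34 as deposited, 0.97 after quantile normalization, 1.44 after rescaling, 2.60 among genes with a mean of 5 FPKM or more and 2.71 with a pseudocount of 0.1. None of the 10 checkpoint genes lies on chromosome X. The part in these medians of RNA from spermatids, somatic cells or cells with the spermatogonia markers was not tested.

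**Figure D5:**
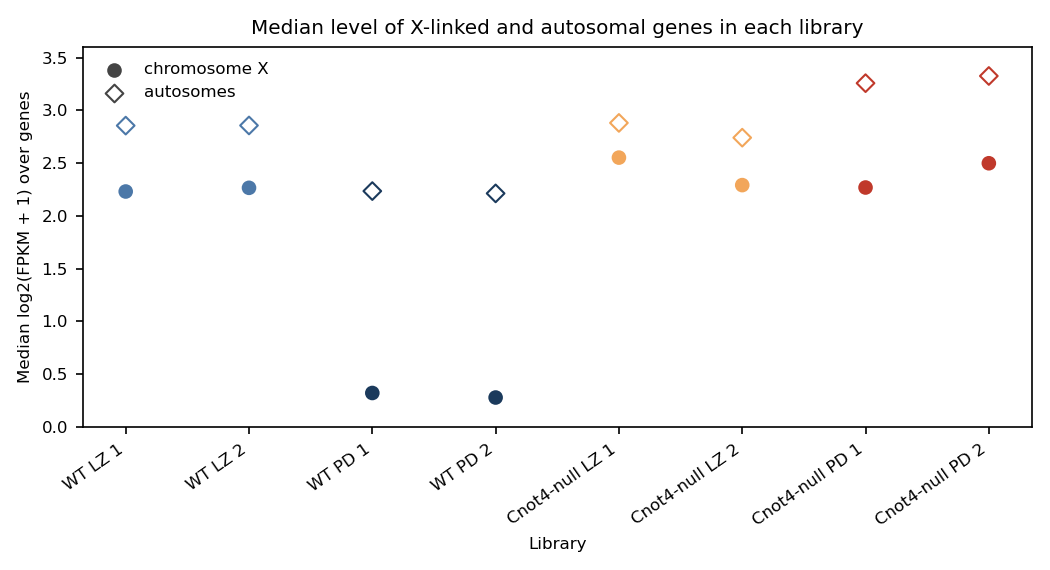
Median log2(FPKM + 1) of the 648 X-linked genes (filled circles) and the 14544 autosomal genes (open diamonds) in each of the 8 libraries. The X-linked median is at 0.32 and 0.28 in WT PD and between 2.23 and 2.55 in the other 6 libraries.

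What the 10 genes share beyond their choice was read from position and sequence. On mm9, 5 of the 10 lie on chromosome 9, spread along it: Chek1 at chr9:36516067-36534650, H2afx at chr9:44142798-44144154, Atm at chr9:53247254-53344845, Atr at chr9:95758016-95852063 and Topbp1 at chr9:103207545-103252762. Atm and Atr, which moved in opposite directions at PD, are thus on the same chromosome. Mdc1 (chr17:35978460-35996615) and Rnf8 (chr17:29751735-29840304) are on chromosome 17, Brca1 is at chr11:101350078-101413269, Chek2 at chr5:111269036-111303152 and Trip13 at chr13:74049910-74075215. The Atr gene shares 9596 bases with the noncoding gene Gm16794 on the other strand.

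Promoters were read for motifs of genes that move with the cell cycle, from RefSeq on GRCm38.p6, as the 250 bases before the gene start. A promoter was matched for 9 of the 10, and both strands were searched for TTTGGCGC, TTTCGCGC and TTTCCCGC, forms of the E2F consensus of cell cycle genes, for TGACGTCA, the cyclic AMP response element, and for CCAAT. TTTCGCGC was found in Topbp1 alone (0.256% of 32851 promoters hold it), TTTCCCGC in Chek2 and Mdc1 (0.895%), and TTTGGCGC (0.417%) and TGACGTCA (1.55%) in 0 of the 9. CCAAT was found in 5 of the 9 (Atm, Brca1, Chek2, Mdc1 and Rnf8) and in 33.8% of all promoters. Of the 3 with an E2F form, Chek2 was higher, Mdc1 lower and Topbp1 not called between the genotypes at PD with the values as deposited. These 3 are printed, with that of Trip13, the gene of the 10 with the smallest adjusted p at PD with the values as deposited and none of the 5 motifs. Sequences run 5′ to 3′ on the strand of the gene, and capitals mark a motif or its reverse complement. Topbp1 (chr9:103305077-103305326), Chek2 (chr5:110839733-110839982) and Mdc1 (chr17:35841248-35841497) are on the plus strand and Trip13 (chr13:73937768-73938017) on the minus strand. A match describes letters and shows no binding.
Topbp1: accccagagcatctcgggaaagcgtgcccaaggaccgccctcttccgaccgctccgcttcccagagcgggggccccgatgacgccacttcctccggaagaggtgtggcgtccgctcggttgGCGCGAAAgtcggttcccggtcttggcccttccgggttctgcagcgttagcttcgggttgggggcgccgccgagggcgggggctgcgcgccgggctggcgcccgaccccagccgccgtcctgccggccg
Chek2: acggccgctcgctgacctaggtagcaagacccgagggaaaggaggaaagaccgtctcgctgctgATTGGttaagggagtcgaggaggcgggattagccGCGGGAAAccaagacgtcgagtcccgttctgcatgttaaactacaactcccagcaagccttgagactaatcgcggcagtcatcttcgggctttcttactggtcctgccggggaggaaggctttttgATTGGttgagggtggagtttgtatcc
Mdc1: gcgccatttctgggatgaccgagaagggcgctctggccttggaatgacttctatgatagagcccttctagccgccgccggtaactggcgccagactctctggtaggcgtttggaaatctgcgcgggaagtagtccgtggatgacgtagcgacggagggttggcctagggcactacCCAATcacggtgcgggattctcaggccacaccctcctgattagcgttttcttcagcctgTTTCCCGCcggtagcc
Trip13: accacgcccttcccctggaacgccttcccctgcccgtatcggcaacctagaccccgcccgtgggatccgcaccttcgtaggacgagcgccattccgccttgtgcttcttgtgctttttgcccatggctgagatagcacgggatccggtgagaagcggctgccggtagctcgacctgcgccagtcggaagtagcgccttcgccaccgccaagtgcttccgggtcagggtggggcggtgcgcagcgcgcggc

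For each of the 10, the gene outside the list with the most similar pattern was found by Pearson r of log2(FPKM + 1) over the 8 libraries, among 9338 genes with a mean of at least 5 FPKM. The libraries form 4 groups, so such r values mainly reflect group means and are given as a description. They were 0.999 for Atm with Cpsf7, 0.989 for Atr with 2810407C02Rik, 0.999 for Topbp1 with Prpsap2, 0.959 for Mdc1 with Dld and 0.953 for H2afx with Sdhaf1. For the others they were 0.999 for Brca1 with Bnc1, 0.998 for Rnf8 with E430025E21Rik, 0.999 for Chek1 with Phf17, 0.999 for Chek2 with Fxr2 and 0.998 for Trip13 with Gmds. Bnc1 followed Brca1 into the Cnot4-null PD libraries, at 2.96 and 7.93 FPKM where Brca1 was at 2.43 and 6.01, and in WT PD it was at 0.172 and 0.395.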

How the data were processed

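Spermatocyte RNA was measured in 8 libraries, 2 in each of 4 groups (WT and Cnot4-null at LZ and PD), grouped by their labels. The authors mapped the reads to mm9 with TopHat2 2.1.1 and computed FPKM with Cufflinks 2.2.1, and the deposited values are 1 FPKM per symbol and library. The files hold no read counts, so counting error was not computed. The FPKM worth of 1 read in genes of low level gave estimates of depth relative to WT LZ 1 of 1.06 for WT LZ 2, 1.21 and 1.33 for WT PD, 0.935 and 1.06 for Cnot4-null LZ and 1.00 and 0.823 for Cnot4-null PD. They differ, in part in direction, from what read totals and mapping rates stated elsewhere for the libraries would give, for a cause that was not tested, and no result rests on them.

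Genes above 1 FPKM in at least 1 library were kept, 15899 of 23235. Values were analyzed as log2(FPKM + 1) in limma 3.58.1 under R 4.3.3, with the prior variance of eBayes following the mean level, in a model of 4 group means with 4 residual degrees of freedom. Tests were two-sided and adjusted by the Benjamini-Hochberg method over all genes in each of 5 contrasts. Tables and plots were made in Python 3.11.15 with pandas 2.3.3, numpy 2.4.6 and matplotlib 3.10.9. An exact permutation test of 2 libraries against 2 cannot go below p = 0.333, so none was run. The duplicates are described as biological replicates, and p-values rest on 1 spread per gene, shared by the 4 groups. Among genes with a mean of 10 FPKM or more, duplicates differed by a median of 0.55 on the log2 scale in Cnot4-null PD and 0.11 in WT PD. SEs and p-values can thus be too small for comparisons with Cnot4-null PD and too large for those within WT.

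Named genes are the 10 members, Cnot4, marker genes, the 3 largest rises and 3 largest falls of each pathway list among genes called between the genotypes at PD, and the most similar gene of each member. The members and lists were chosen with earlier results of these data known.

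As alternatives, genes were not filtered or needed a mean of 5 FPKM or more, the pseudocount was 0.1, libraries were quantile normalized or rescaled until the genes above 1 FPKM in all 8 had equal medians, a replicate block was fitted, and each library was left out in turn, when the lone library of its group is assumed to vary like the other groups. A library left out can change a call in a comparison that does not use it, since all comparisons of a gene share 1 estimate of spread. Counts in the pathway and marker lists under these alternatives were chosen after seeing the data. Positions come from GENCODE vM1 on mm9 and promoters from RefSeq on GRCm38.p6. Protein sequences were not analyzed. Sertoli markers were 7 of 8 listed symbols, since Rhox5 was not listed.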

Additional observations from a re-analysis of the deposited data

Results flagged for a closer look

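For 7 of the 10 checkpoint genes and 14 of the 16 named pathway genes, limma called the difference between the genotype effects at PD and LZ (adjusted p under 0.05), as it did for 26% of all genes upward and 3.97% downward. Of all 56 pathway genes tested, 19 were called upward (33.9%) and 2 downward (3.57%). The 14 were named for large genotype differences at PD, which enter the tested quantity, so their number shows nothing about the pathways. Values are log2 differences of the effect at PD minus the effect at LZ, and the 2 effects share no library. Among the 10 checkpoint genes they were 1.66 for Atm, -1.68 for Atr, 1.95 for Brca1, 1.28 for Rnf8, 1.77 for Chek1, 2.02 for Chek2 and 1.91 for Trip13.

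For the pathway genes, the difference was 1.75 for Prkdc, 1.87 for Telo2 and -1.29 for Kat5 in ATM activation, and 3.07 for Tipin, 2.46 for Rad9 and 2.14 for Clspn in ATR activation. It was 2.33 for Brcc3, 1.31 for Brip1 and 1.67 for Ube2n among genes acting at marked chromatin. It was 4.95 for Bax, 2.40 for Cdkn1a and 2.197 for Cdc25b among checkpoint effectors, and 3.45 for Scml2 and -1.89 for Hormad1 in the list of HORMA proteins and silencing. Of these 21 genes, Atr, Kat5 and Hormad1 had negative values, and Brcc3 and Scml2 lie on chromosome X. The markers of spermatogonia, spermatids and somatic cells differed between the same groups, and their part was not tested. Groups of 2 libraries are too small for a test of single samples that lie far from the others.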

How the results depend on the processing

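Over the log2 fold changes of the 10 checkpoint genes in 5 contrasts and 14 alternatives, 612 stayed on their side of the threshold, 72 lost a call and 16 gained one. With the 16 named pathway genes, the counts were 1616, 163 and 26, and 5 more values changed sign. A change of sign was counted only where the value from all libraries as deposited was called or more than 1 SE from 0, so values nearer to 0, such as Atm at LZ, were given no direction, whatever the size of the value under the alternative. The 5 were Hormad1 from WT LZ to WT PD (-0.016) and Cdkn1a within Cnot4-null (-0.18) after quantile normalization, Prkdc within Cnot4-null without Cnot4-null PD 1 (0.0069, where leaving out 1 library gave -0.74 to 0.0069), Brip1 between the genotypes at LZ without Cnot4-null LZ 1 (range -0.0012 to 0.75), and Rad50 in the difference of genotype effects after quantile normalization (-0.20). The cause was not tested.

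Quantile normalization called 5 of the 10 between the genotypes at PD and 3 in the difference of effects, and the cause was not tested. With no filter, 3 were called in that difference and 31 genes between the genotypes at LZ. With a mean FPKM of at least 5, when fewer genes were tested, 5219 genes were called between the genotypes at PD.

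With 1 library left out, the 10 genes gave 7 to 7 calls from WT LZ to WT PD, 4 to 6 within Cnot4-null, 0 to 0 at LZ, 6 to 8 at PD and 1 to 7 in the difference. Over all genes these were 6944 to 10150, 4651 to 8238, 9 to 25, 4073 to 9932 and 1723 to 7944.

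With the replicate block, 8 of the 10 were called between the genotypes at PD, 5 within Cnot4-null (Brca1 lost) and 7 in the difference. Deviations of libraries with the same number correlated at 0.194 between Cnot4-null LZ and PD and at -0.0651 to 0.0826 otherwise, so the numbers carry no shown pairing. Without read counts, the counting error of low levels such as Brca1 in WT PD is unknown.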
